A study of Mus musculus with 8 samples.

Results

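The outer flank of the tiled locus is the stretch chr7:65890585-66100000 (build mm9) at the lower end of the array's coverage, on the side of Ube3a where Atp10a is the nearest protein-coding gene. Its members were chosen by position alone: non-control probes whose lower coordinate falls in that stretch, with the plus and the minus strand kept apart. They number 7776 of the 53834 non-control probes of the array (14.4%). They form 3888 pairs, each with a plus-strand and a minus-strand probe at the same coordinates. A value on all 8 arrays was obtained for 3881 plus-strand and 3882 minus-strand probes, and the other 13 members were left out of the summaries.

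The locus is an imprinted domain, in which some RNAs are made from the maternal and others from the paternal chromosome. In neurons Ube3a, which encodes a ubiquitin ligase, is made mainly from the maternal copy on the plus strand, and the long antisense RNA Ube3a-ATS is made from the paternal copy on the minus strand, entering from the Snrpn side. Atp10a, which encodes a P4-type ATPase that moves phospholipids across membranes, lies beyond Ube3a as seen from Snrpn. The flank is thus the stretch of the array farthest from Snrpn.

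The RNA samples were of cerebral cortex of the C57BL/6 strain, taken at P0 (the day of birth), and each array was hybridised with Cy5-labelled first-strand cDNA primed with random hexamers, so that the strand of the RNA was kept. The wild-type group holds 2 samples of total RNA. The maternal deletion (del s-u/+) has lost the Snrpn-to-Ube3a stretch of the maternally inherited chromosome, and the paternal deletion (del +/s-u) that of the paternally inherited one. The double deletions carry the maternal deletion and, on the other chromosome, lack the Snrpn promoter. Each polyA sample was purified from 1 of the wild-type RNAs. The maternal and the paternal deletion have 1 sample each, so their comparisons borrow the spread of the wild types and the double deletions. The 2 double deletions carry different promoter deletions, and in each sample the genotype label contradicts the title on which one it is, so no value is assigned to either allele. The sources used here do not say how many animals stand behind a sample, and the p-values cover no more than the sample-to-sample spread, which may be technical.

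The files name no genes, and an mm9 annotation was not used here, so no exon, intron or UTR could be placed in the flank. RefSeq's gene table of another build (GRCm38.p6) was used for names and order only. In it Atp10a, on the plus strand, is the only protein-coding gene on this side next to Ube3a, the lncRNA Gm39019 overlaps it, and 5 pseudogenes (Gm6226, Gm18453, Gm9373, Gm9375 and Gm9377) lie nearby. The lists of imprinted genes and of cell type markers for neurons, glia, microglia, endothelium and blood could not be applied for the same reason.

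All 8 arrays lay on 1 slide with 1 scan. The median red intensity of the flank's plus-strand probes was 115 in the maternal deletion, 109 and 101 in the wild types, 104 in the paternal deletion, 120.5 and 106.75 in the double deletions, and 43.5 and 43 in polyA RNA. The minus-strand medians were 75.5 to 91 on total RNA arrays and 41 on both polyA arrays, against a local background of 36 to 38 and of 34. On the total RNA arrays 90.0% to 94.2% of plus-strand and 73.0% to 79.1% of minus-strand members were well above background by the scanner's mark, and 62.0% to 68.5% of the 3338 probes outside the tiled locus were. On polyA arrays the shares were 61.8% and 56.2% for plus-strand members, 55.7% and 51.4% for minus-strand members, and 38.4% and 33.9% outside. In polyA RNA a typical member therefore lay close above background. On the total RNA arrays the medians stood further above it, more so on the plus than on the minus strand. Levels below are log2 values relative to the array's 75th percentile of the outside probes. Values of different probes also carry each probe's own hybridisation, which was not measured here.

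In wild-type cortex the plus strand of the flank was the higher, and both strands were brighter than the outside probes. The median red intensity was 109 and 101 (plus) and 79.25 and 76 (minus), against 55 and 53 for the outside probes. A wild-type level above 0 was reached by 41.9% of plus-strand and 35.7% of minus-strand members and by 24.9% of the outside probes. Of these members, 969 of 1625 on the plus and 855 of 1385 on the minus strand were custom probes, a series described below. No custom probe of chromosome 7 lies among the outside probes, so the comparison with them is not like for like. Above a level of 2 the strands were nearly alike, at 14.7% (plus) and 14.4% (minus), and above 4 they stood at 6.36% and 6.49%. The plus-strand mean level was 0.38 and 0.34 in the wild types, 0.33 in the maternal deletion, 0.36 in the paternal deletion and 0.30 and 0.29 in the double deletions. The minus-strand mean level was 0.14 and 0.13 in the wild types, 0.12 in the maternal deletion, 0.13 in the paternal deletion and 0.08 and 0.12 in the double deletions. All 6 total RNA arrays thus lay within 0.097 log2 of each other for the plus and 0.065 for the minus strand, and the strands did not overlap. The wild-type mean was 0.36 ± 0.027 for the plus and 0.14 ± 0.011 for the minus strand (SD, n = 2).

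**Figure D1:**
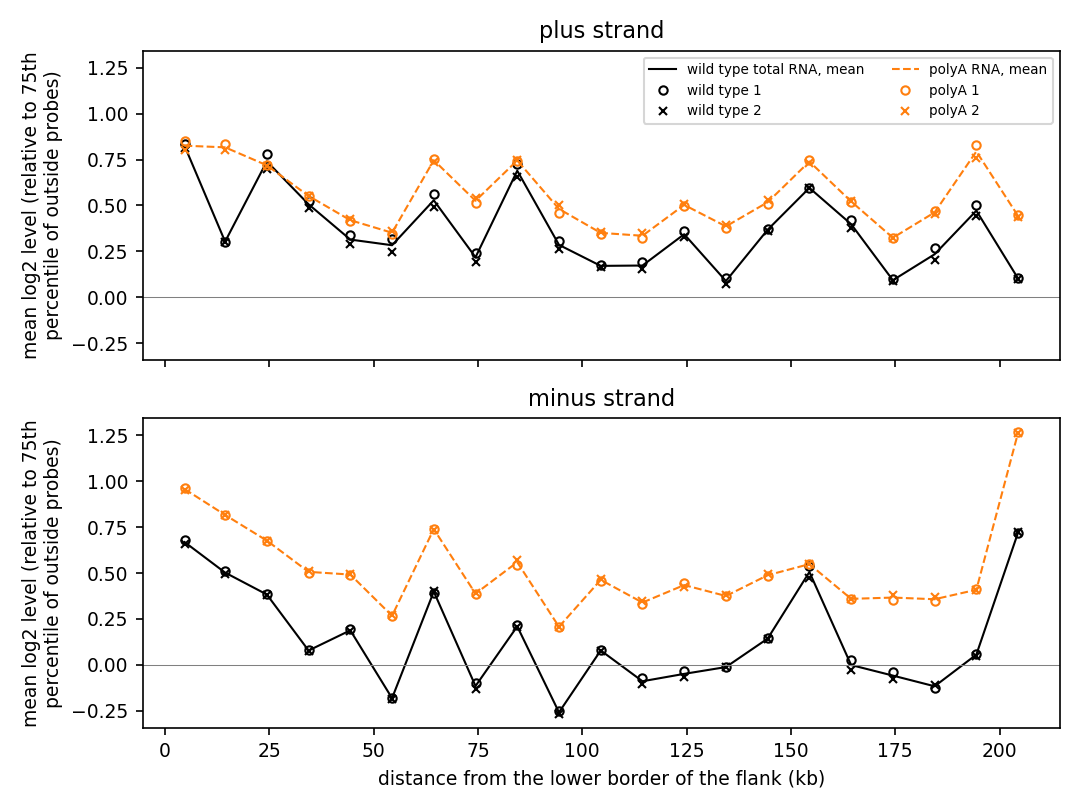
Mean log2 level of each 10-kb bin of the flank (y axis, relative to the 75th percentile of outside probes) against the distance of the bin's centre from the lower border of the flank in kb (x axis), plus strand above and minus strand below. Black marks are the wild-type total RNA samples, orange marks the polyA samples, and lines join the means of 2. The wild types lie on top of each other, and the minus strand is highest in the bin at the upper border, with a level of 0.72 in total RNA and 1.26 in polyA RNA.

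Along the flank the level varied between 10-kb bins by more than it varied between samples. On the plus strand the highest wild-type bins were 65890585-65900000 (0.82), 65910001-65920000 (0.74) and 65970001-65980000 (0.69). The lowest were 66020001-66030000 (0.089), 66060001-66070000 (0.093) and 66090001-66100000 (0.10). With all probes no plus-strand bin fell below 0 in the wild types, but with catalogue probes alone most did. On the minus strand the highest were 66090001-66100000 (0.72), 65890585-65900000 (0.67) and 66040001-66050000 (0.51), and the lowest were 65980001-65990000 (-0.26), 65940001-65950000 (-0.18) and 66070001-66080000 (-0.12). With all probes the bin at the upper border was thus the highest of the 21 on the minus strand and among the 3 lowest on the plus strand. The order depended on the kind of probe, custom or catalogue, as described below. The bin 65890585-65900000 stood at 1.66 (plus) and 1.55 (minus) with custom probes, but at -0.25 and -0.49 with catalogue probes. On the minus strand the last bin stood at 0.45 with catalogue probes and 0.98 with custom probes, where 65900001-65910000 reached 1.57.

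The array carries 2 series of probes, and they gave different levels for the same stretch. Custom probes (1904 pairs in the flank) are 60 bases long and start every 110 bases, whereas catalogue probes (1984 pairs) are 45 to 60 bases long, and 98.9% of them overlap a custom probe. Custom probes averaged 0.84 ± 0.032 (plus) and 0.65 ± 0.014 (minus) in the wild types (SD, n = 2). Catalogue probes averaged -0.10 ± 0.023 and -0.36 ± 0.0088. The gap went with the places that catalogue probes avoid. The 586 plus-strand custom probes that overlap no catalogue probe averaged 1.99, and the 1318 that overlap one averaged 0.33. The corresponding minus-strand levels were 1.98 for 584 probes and 0.07 for 1317.

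Very bright members were almost all custom probes. A wild-type level above 6 was reached by 109 plus-strand members, of which 108 were custom, and by 117 minus-strand members, of which 116 were custom. In 64 pairs both strands passed that level. The share was 2.81% of plus-strand and 3.01% of minus-strand members, and 0.21% of the outside probes. Since no custom probe of chromosome 7 lies among the outside probes, these shares compare unlike series and show no excess of the flank. The brightest members on the plus strand were CUST_947 (chr7:65994645-65994704), CUST_365, CUST_1168 and CUST_343, and on the minus strand RC_CUST_599 (chr7:65956365-65956424), RC_CUST_1339, RC_CUST_165 and RC_CUST_1335. Each of them was saturated on at least 3 of the 6 total RNA arrays, at a red intensity of 65508, so their order has no meaning.

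Which side of the upper border was the brighter depended on the series. With all probes the flank lay below the next stretch of the same length, by 1.07 log2 on the plus strand (wild-type difference -1.07, SE 0.037, adjusted p = 0.00151, limma) and by 1.06 on the minus strand (-1.06, SE 0.029, adjusted p = 0.00151), and it was lower on 8 of 8 arrays. With catalogue probes alone it lay above, by 0.53 on the plus strand (SE 0.031, adjusted p = 0.00689) and by 0.25 on the minus strand (SE 0.020, adjusted p = 0.00689), also on 8 of 8 arrays. With custom probes alone the differences were -1.66 and -1.48 (adjusted p = 0.000455 for each). In the next stretch 62.7% of the plus-strand custom probes overlapped no catalogue probe, against 30.8% in the flank. There these probes averaged 4.17 (plus) and 3.56 (minus). Without the first or the second wild type the all-probe steps kept their size but missed the threshold (adjusted p = 0.0920 and 0.0885). Both the test against 0 and the split by series were added after the data had been seen.

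**Figure D2:**
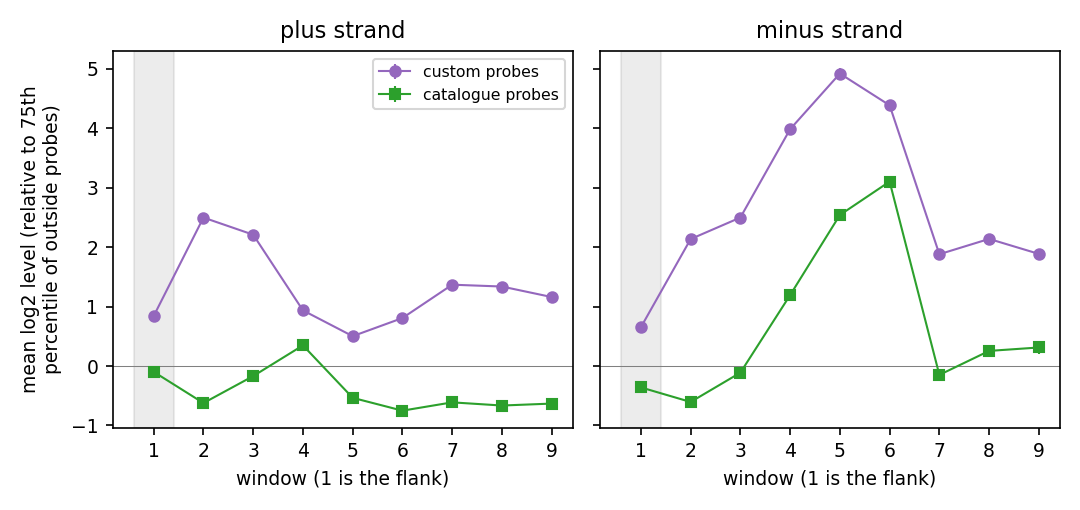
Mean log2 level in wild-type total RNA (y axis, relative to the 75th percentile of outside probes) for 9 consecutive windows of the flank's length (x axis; window 1, shaded, is the flank, and the last is cut short by the end of the tiled span), plus strand left and minus strand right. Purple circles are custom probes and green squares catalogue probes, with SD bars of 2 samples that are mostly smaller than the marks. The flank ranks 7 of 9 on the plus strand with custom probes (0.84) and 2 of 9 with catalogue probes (-0.10).

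Across the whole locus the catalogue probes placed the flank's plus strand 2 of 9 from the top, at -0.10. The window that ranked first, at 0.35, was the fourth, and the other 7 lay between -0.75 and -0.17. On the minus strand the flank ranked 8 of 9 with catalogue probes (-0.36) and 9 of 9 with custom probes (0.65), where the brightest window reached 4.92.

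The bins just inside and just outside the upper border are given as a description, since the border is part of how members were chosen. The last bin of the flank had a wild-type level of 0.10 (plus) and 0.72 (minus), and the bin 66100001-66110000 had 3.21 and 1.86. With catalogue probes alone the same step was from -0.33 to -0.39 on the plus strand and from 0.45 to -0.55 on the minus strand. With custom probes it was from 0.52 to 4.79 and from 0.98 to 2.94.

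The plus strand was the brighter strand along most of the flank. On the wild-type arrays the plus-strand probe was above its minus-strand partner in 63.3% and 63.9% of 3875 pairs, with a median gap of 0.27 and 0.25 log2. The shares were 61.1% in the maternal deletion, 64.7% in the paternal deletion and 62.2% and 59.6% in the double deletions, so every total RNA array leaned the same way. The mean gap in wild type was 0.23 (SE 0.030, adjusted p = 0.0118, limma against 0) and was positive on 8 of 8 arrays. Without the first or the second wild type it was 0.22 (adjusted p = 0.269) or 0.24 (adjusted p = 0.247). It was 0.26 with catalogue probes (adjusted p = 0.00911) and 0.19 with custom probes (adjusted p = 0.00976). The next window had about the same mean gap, 0.23 (SE 0.025, adjusted p = 0.00799, positive on 8 of 8 arrays), so by this measure the lean was not particular to the flank. Its median gap was 0.05 in the wild types, against 0.27 in the flank, a difference that was not tested. In the other 7 windows the mean and the median gap were negative. Among brighter probes the lean was smaller. In the 1406 pairs with both probes above background on all 8 arrays, the plus strand was higher in 50.4% to 53.9% on the total RNA arrays, with a median gap of 0.12 and 0.14 in the wild types. When each strand was instead averaged over its own probes above background on all 8 arrays, the wild-type difference of the strand means was -0.062.

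The gap was not spread evenly. From 65910001 to 66090000 all 18 bins had a positive wild-type median gap, from 0.17 to 0.47, with the plus strand higher in 59.0% to 75.7% of pairs. In the first 2 bins and the last bin the median gap was -0.02 to 0.07 and the share 47.5% to 53.3%. The widest mean gap was 0.54 ± 0.022 (SD, n = 2) in 65980001-65990000. By series the mean gap was positive in 19 of 21 bins with catalogue probes and in 16 of 21 with custom probes. The borders of this stretch were read from the values and carry no test.

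**Figure D3:**
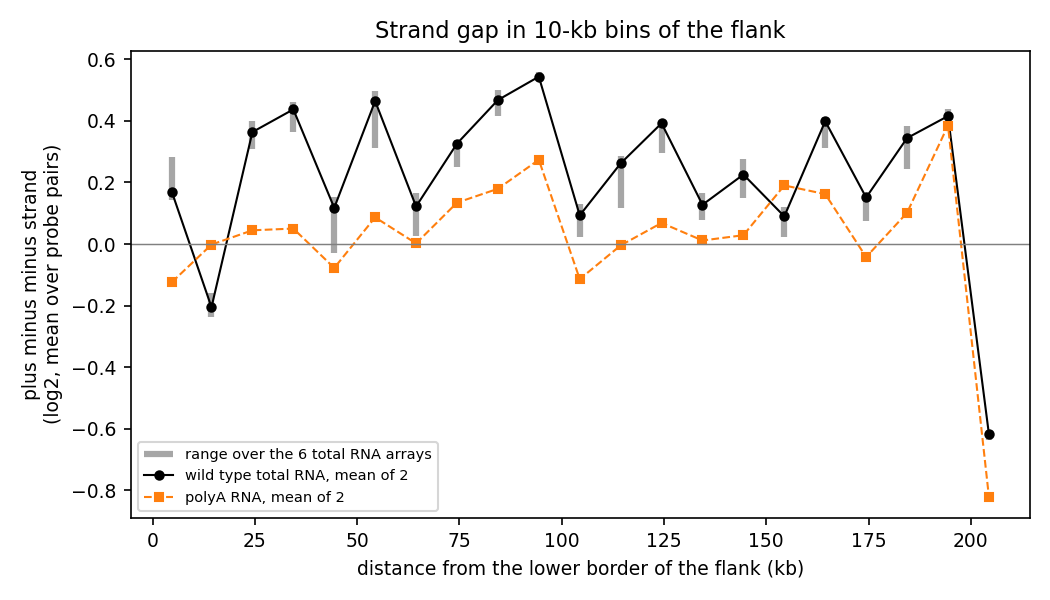
Plus-strand level less minus-strand level (y axis, log2, mean over probe pairs) in each 10-kb bin against its distance from the lower border of the flank in kb (x axis). Black circles are the mean of the wild-type total RNA samples, grey bars the range over the 6 total RNA arrays, and orange squares the mean of the polyA samples. The wild-type gap is above 0 in 19 bins and falls to -0.62 in the last bin.

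The last bin held the longest continuous signal of the flank in catalogue probes, and it lay on the minus strand. In wild type 20 neighbouring minus-strand catalogue probes, over 2491 bases at chr7:66090914-66093404, all had a level above 1, with a lowest value of 1.64, a median of 3.78 and a highest of 4.52. The next longest run above that level held 4 probes on the minus strand (chr7:66078710-66078993), and the longest on the plus strand held 5 (chr7:66038843-66039163). The run was picked from its values, so it is described without a test.

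Every total RNA sample showed the run at nearly the same height. The mean level of its 20 catalogue probes was 3.65 and 3.60 in the wild types, 3.71 in the maternal deletion, 3.61 in the paternal deletion and 3.55 and 3.52 in the double deletions. The median red intensity of these probes was 2232 and 2127 in the wild types, 2519 in the maternal deletion, 1984 in the paternal deletion, 1987 and 1889 in the double deletions, and 1428 and 1197 in polyA RNA. The genotypes thus spanned 3.52 to 3.71, whereas the signal itself stood far above its surroundings. The same length of minus strand below and above the run averaged -0.72 and -0.57 in the wild types, and the plus strand opposite the run averaged -0.15.

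The custom probes of the same 2491 bases, which were not used to find the run, gave the same picture. The 22 minus-strand custom probes averaged 3.95 ± 0.062 in the wild types (SD, n = 2), 4.05 in the maternal deletion, 3.92 in the paternal deletion and 3.87 and 3.92 in the double deletions. Beside the run they averaged 0.01 below and 0.22 above, and opposite it on the plus strand 1.51. The minus-strand probe was above its partner in 20 of 20 catalogue pairs and 19 of 22 custom pairs. Many of these probes overlap each other and are not independent of their neighbours.

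In polyA RNA the run was present as well. Its catalogue probes averaged 4.31 and 4.16 and its custom probes 4.54 and 4.44. These are 0.61 and 0.54 above total RNA on this scale, and 18 of 20 catalogue and 20 of 22 custom probes were higher. The minus-strand catalogue probes below and above the run were higher by 0.66 and 0.73, but they were dim, at -0.72 and -0.57 in total RNA. Bright members mostly went the other way. The 95th percentile of the flank's minus-strand levels was 4.76 and 4.61 in the wild types and 4.20 and 4.01 in polyA RNA. The whole bin 66090001-66100000 was higher in polyA RNA by 0.54 (SE 0.019, adjusted p = 0.000237, limma) on the minus strand, the largest difference of the flank's bins. On a scale set by the median of the outside probes the same bin was lower, at -0.27. Among 194 stretches of 1 kb with at least 5 catalogue probes per strand, the median wild-type level passed 1 in 3 on the minus strand, all between 66091001 and 66094000, and in 0 on the plus strand. With custom probes it passed 1 in 29 of 209 such stretches on the minus strand and in 35 of 209 on the plus strand, so in that series the run was not the only bright place.

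**Figure D4:**
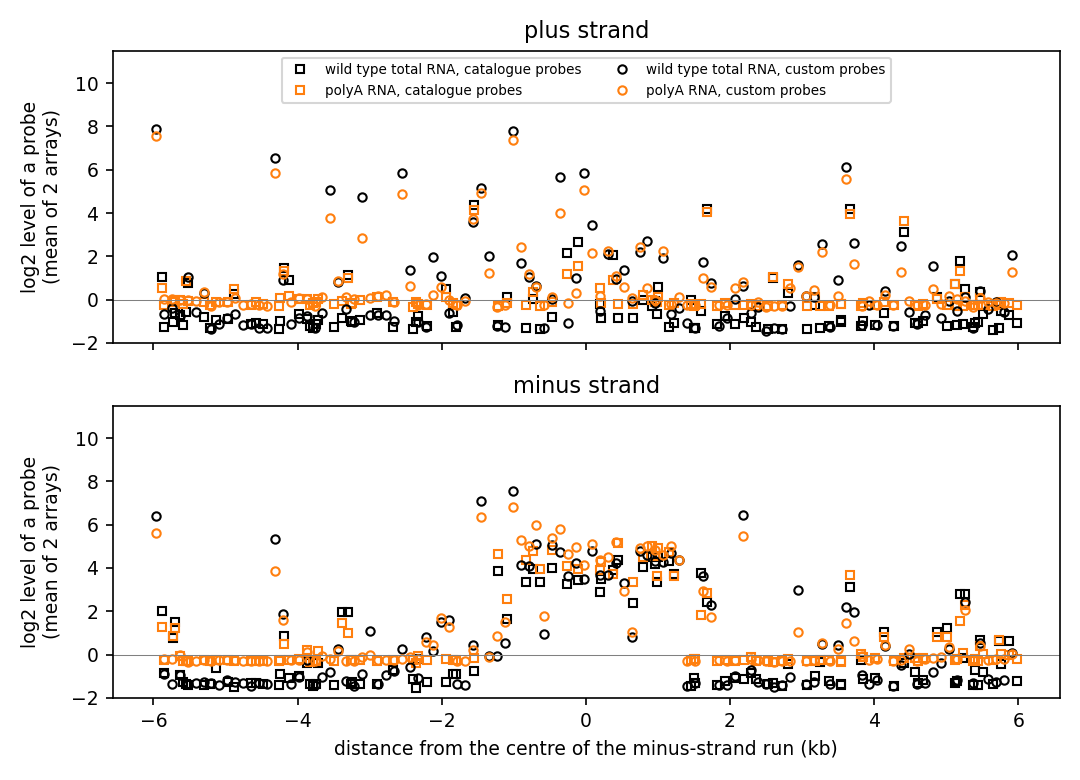
Log2 level of single probes (y axis, mean of 2 arrays, relative to the 75th percentile of outside probes) against distance from the centre of the minus-strand run in kb (x axis), plus strand above and minus strand below. Squares are catalogue probes, circles custom probes, black wild-type total RNA and orange polyA RNA. On the minus strand the 20 catalogue probes of the run lie between 1.64 and 4.52 in total RNA, and most probes on both sides of it lie below 0.

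No change of the flank with genotype was called. The maternal deletion differed from wild type by -0.04 log2 on the plus strand (SE 0.051, 95% interval -0.20 to 0.13, adjusted p = 0.813) and by -0.02 on the minus strand (-0.18 to 0.15, adjusted p = 0.813). Of all 18 strand windows of the span 16.7% were called in this comparison (limma). The intervals leave room for a change of up to 0.20 log2, or 0.871-fold on the plus strand, and the median over all probes tested was -0.07, the same as the flank's plus-strand median.

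The paternal deletion, which removes the Snrpn-to-Ube3a stretch from the chromosome that makes the antisense RNA, was as close to wild type. The plus-strand difference was -0.00047 (95% interval -0.16 to 0.16, adjusted p = 0.993) and the minus-strand difference -0.01 (-0.17 to 0.15, adjusted p = 0.993). In this comparison 0% of the 18 windows were called, although the minus-strand windows 4 to 6 differed by -3.10, -4.10 and -3.26 (adjusted p = 0.0961 for each). The absence of a call therefore carries little weight here, and the intervals are the better guide.

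The double deletions gave the lowest plus-strand mean. They differed from wild type by -0.07 on the plus strand (SE 0.042, 95% interval -0.20 to 0.06, adjusted p = 0.313) and by -0.04 on the minus strand (-0.17 to 0.10, adjusted p = 0.541), where 22.2% of the windows of the span were called. Both double deletions lay below both wild types on each strand. Against the maternal deletion they differed by -0.03 (adjusted p = 0.852) and -0.02 (adjusted p = 0.872). The maternal deletion differed from the paternal deletion by -0.04 and -0.01 (adjusted p = 0.920 for both). The comparisons with wild type share their control samples and are not independent. The difference between the flank and the next window, and between the strands, did not pass the threshold in any of these 5 comparisons, with adjusted p from 0.534 to 0.980. Of all 25 such differences along the span 12% were called for the double deletion and 0% in the other 4. Without the first double deletion the plus-strand step of the remaining one was called, at -0.10 from wild type (adjusted p = 0.0279) and -0.13 from the maternal deletion (adjusted p = 0.0373). With the double deletions as separate groups their mean step was called against the maternal deletion (-0.085, adjusted p = 0.0475).

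The 42 bins of the flank gave the same result. In each of the 5 genotype comparisons 0 of 42 were called by limma, and 0 of 42 reached an unadjusted p under 0.05. Over the 356 bins of the span 18.8% were called for the double deletion (15.4% higher) and 0% in the other 4, where 24 to 99 bins reached an unadjusted p under 0.05. Bins outside the flank that differed by as much as -5.96 (paternal deletion) and 5.80 (maternal against paternal deletion) were among those not called. The largest differences were -0.07 for the maternal deletion (plus strand, 66040001-66050000, SE 0.050, adjusted p = 0.974) and -0.04 for the paternal deletion (plus strand, 66010001-66020000). For the double deletion the largest were -0.12 (plus strand, 65940001-65950000, SE 0.052, adjusted p = 0.252) and -0.11 in 66000001-66010000 and in 66050001-66060000. The largest minus-strand differences were -0.07 and -0.06, both in 65950001-65960000, for the maternal and the double deletion, and -0.04 for the paternal deletion in 65900001-65910000.

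**Figure D5:**
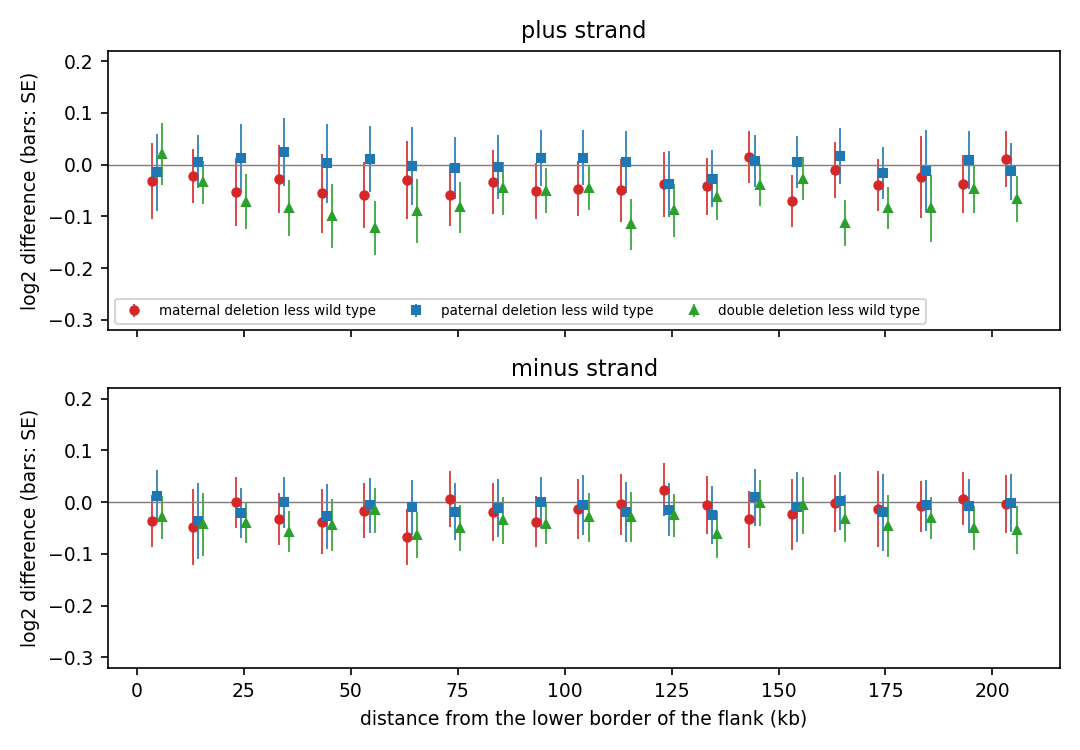
Log2 difference from wild type (y axis) of each 10-kb bin against its distance from the lower border of the flank in kb (x axis), plus strand above and minus strand below. Red circles are the maternal deletion, blue squares the paternal deletion and green triangles the double deletions, and bars are standard errors of the limma fit. The values lie between -0.12 and 0.024, and none of the 42 bins was called for any genotype.

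Single probes were called in 1 genotype comparison only. For the double deletion against wild type, limma called 26 of 6948 tested members, 9 on the plus strand (4 higher, 5 lower) and 17 on the minus strand (6 higher, 11 lower). These are 0.241% and 0.529% of the members tested, whereas 8.85% of all 49381 tested probes were called (5.97% higher, 2.88% lower), so calls were rarer in the flank than on the array. The 26 became 0 with custom probes alone, 0 without either wild type, and 533 and 456 without the first and the second double deletion. For the maternal and the paternal deletion, 0 of 49381 probes were called. At an unadjusted p under 0.05 (limma) the maternal deletion had 104 of 3736 plus-strand and 124 of 3212 minus-strand members, and the paternal deletion 41 and 40. These are 2.78% and 3.86% for the maternal and 1.1% and 1.25% for the paternal deletion. Over all tested probes the shares were higher, at 12.5% and 18.8%. Without the first or the second double deletion some members were called for both single deletions, but no share over all probes is given for those fits.

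A few members stood out in 1 sample or genotype against most of their neighbours. On the plus strand A_67_P06210289 (chr7:66013619-66013676) had levels of 4.28 and 4.61 in the wild types, 4.24 in the maternal deletion, -0.01 in the paternal deletion and 0.22 and 2.41 in the double deletions. Its paternal-deletion difference of -4.45 (SE 1.03, adjusted p = 0.127) did not pass the threshold in the fit of total RNA arrays with the double deletions pooled. The 17 neighbours within 500 bases had differences from -0.34 to 0.62. With the double deletions as separate groups the same difference was called (adjusted p = 0.000137), as it was with all 8 arrays in 1 fit (adjusted p = 0.045). A_67_P01526566 (chr7:66070377-66070436) was at 3.28 in the maternal deletion, -0.13 and -0.25 in the wild types and -0.12 in the paternal deletion (difference 3.47, adjusted p = 0.106, and 0.00478 with the double deletions as separate groups). Its 21 neighbours had a median difference of -0.09 and a highest of 1.89.

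Among minus-strand members, RC_CUST_1381 (chr7:66042385-66042444) was lowest in the maternal deletion, at -0.73 against 1.19 and 1.31 in the wild types and 1.24 to 1.60 in the other deletions (difference -1.97, adjusted p = 0.106, and 0.00488 with the double deletions as separate groups). RC_CUST_455 (chr7:65940525-65940584) was at 1.91 in the maternal deletion and between -1.50 and -1.33 on the other 5 total RNA arrays, and its difference of -3.38 between the double and the maternal deletion had an adjusted p of 0.191, and of 0.00106 with separate groups. For the paternal deletion the largest rise in value was CUST_323 (chr7:65926005-65926064), at 1.83 against 0.64 and -0.44 in the wild types (adjusted p = 0.252), where the wild types themselves lay far apart. For the double deletion it was A_67_P14806144 (chr7:65969435-65969494), at 2.05 and 1.91 against 0.68 and -0.98 (adjusted p = 0.147). None of these passed the threshold with the double deletions pooled, and on the scale of all probes CUST_323 and A_67_P14806144 passed as well (adjusted p = 2.35e-07 and 8.75e-08).

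PolyA RNA differed from total RNA along the flank, but the direction depended on the scale. The 75th percentile of the outside probes itself lay close above background in polyA RNA. Its red intensity was 47 and 46 there, against a local background of 34 in the flank, and 140.25 and 135 in the wild-type total RNA. On the outside 75th percentile the plus-strand level was 0.55 in both polyA samples against 0.38 and 0.34, a difference of 0.18 (SE 0.049, adjusted p = 0.000902, limma). Without the second wild type it was 0.16 (adjusted p = 0.0527). The minus-strand level was 0.51 and 0.52 against 0.14 and 0.13, a difference of 0.38 (SE 0.049, adjusted p = 9.58e-09). Of the 18 windows 88.9% were called. On the median of the outside probes the differences were -0.63 and -0.43, and for the members above background on all 8 arrays (2123 plus, 1899 minus) they were -0.21 and -0.16. The 5th percentile of plus-strand levels was -1.53 to -1.29 on the total RNA arrays and -0.31 and -0.29 on the polyA arrays, while the 95th was 4.53 to 4.81 and 3.92 and 3.80. Dim members thus sat higher and bright members lower in polyA RNA.

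On the outside 75th percentile 36 of the 42 bins were called higher in polyA RNA (16 plus, 20 minus) and 0 lower, beside 79.5% of the bins of the span called in either direction and 40.7% called higher. The largest plus-strand differences were 0.51 in 65900001-65910000, 0.34 in 66090001-66100000 and 0.32 in 66080001-66090000. After 66090001-66100000, the minus strand had 0.50 in 65960001-65970000 and 0.48 in 66010001-66020000. Of the tested members 2523 of 3557 plus-strand probes were called, 1711 of them higher, and 1931 of 2775 minus-strand probes, 1284 of them higher, against 73% of all 43832 probes tested (32.2% higher). The extremes were both on the minus strand. RC_A_67_P14806196 (chr7:65976657-65976701) had red intensities of 613 and 698 in total RNA and 4778 and 6260 in polyA RNA (difference 4.30, adjusted p = 0.000156). RC_CUST_513 (chr7:65946905-65946964) went from 14271 and 10878 to 204 and 154 (difference -4.71, adjusted p = 0.000135).

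The strand gap was narrower in polyA RNA. The plus strand was higher in 53.6% and 52.1% of pairs, with a median gap of 0.03 on both arrays. The mean gap of 0.23 in total RNA was 0.03 in polyA RNA, a difference of -0.20 (SE 0.019, adjusted p = 0.000682, limma). Scaling an array does not change this difference, but other processing did, and it ran from -0.58 to 0.0064 over all settings. Of all 25 within-array differences 84% were called in this comparison. Among probes above background in at least 1 group the same difference was 0.0064 and did not pass the threshold. The bin 66080001-66090000 kept a mean gap of 0.38 in polyA RNA against 0.42 in total RNA, and the last bin stood at -0.82 against -0.62. The flank's step to the next window, -1.07 and -1.06 in total RNA, was smaller in polyA RNA by 0.30 (adjusted p = 0.000779) and 0.33 (adjusted p = 0.0017), and with catalogue probes alone this change was -0.34 and -0.09. Without the first or the second wild type the minus-strand change was 0.33 and 0.34 but missed the threshold (adjusted p = 0.0612 and 0.0594).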

How the data were processed

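Total RNA (6 arrays) and polyA RNA (2 arrays) of mouse cortex were measured on 1 custom Agilent slide tiling both strands of a chromosome 7 span. Per the file headers, the deposited scanner files hold red-channel intensity on a linear scale, not normalized between arrays, from Agilent Feature Extraction 10.7.3.1 and build mm9. Version 10.9 is given in the submitters' processing notes. The green channel held no labelled sample (median intensity 27). The authors' deposited value table (18408 features, catalogue probes in the flank) was read as intensity and put on a log2 scale. It holds no outside probes and kept its own scaling, with direction and centring as deposited.

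From the median red intensity, normexp correction (offset 50, limma 3.58.1, R 4.3.3), log2, averaging of spots per probe, removal of outlier-marked spots and subtraction of the 75th percentile of 3338 outside probes were applied. Means over 18 strand windows of the flank's length, 356 strand bins of 10 kb with at least 3 probes, 25 within-array differences, and single probes that every array of 1 or more groups marked as well above background were compared with lmFit and eBayes (two-sided, Benjamini-Hochberg over each whole table, threshold 0.05). The 6 total RNA arrays formed 4 groups sharing 1 spread, with the double deletions as 1 group; polyA was compared in the 4 wild-type arrays. The number of arrays limits the precision.

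Named items are the flank per strand, its 3 highest and 3 lowest wild-type bins per strand, the 3 bins with the largest difference per comparison and strand (the text gives the largest of these where none was called), the 4 brightest probes per strand and the probes with the largest and smallest difference per comparison. The minus-strand run and the strand-gap stretch fall outside it and were chosen after their values were seen. The members and lists were chosen with earlier results of these data known. Gene lists could not be applied, because the files name no genes. Probe sequences and a genome of build mm9 were not used here. On simulated data for the double deletion against wild type, the probe fit called 61% of 200 probes changed by 2 log2. It made 2 false calls among the unchanged of 53767 probes. The bin fit called 100% of 40 bins changed by 0.3 and made 3 false calls among the unchanged of 356 bins. The simulated noise was independent between probes, and the simulated double deletions were alike. The real ones differed, at 0.81 and 2.08 in minus-strand window 4, so these rates need not hold for the real arrays.

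The series' design text states that polyA RNA was purified from the wild-type samples, so replicate numbers pair them. Deviations of paired samples from their group means correlated at 0.203 over 356 bins. Alternatives were other scales, background corrections, filters, bin lengths, groupings, the replicate block, each probe series alone and leaving out each replicate.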

Additional observations from a re-analysis of the deposited data

How the results depend on the processing

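For the flank's means, differences and counts, the values below are those that changed direction, side of the threshold or, for counts, size by over 1.5 times. The plus-strand and minus-strand mean is the flank's log2 level, a step is the flank less the next window, and the strand gap is plus less minus strand. For a comparison, the value given is the difference in that quantity. Of 829 such results and settings compared, 678 were unchanged, 88 changed sign, 44 counts moved, 14 lost and 5 gained a call. Of 187 values of the named probes under other settings, 42 gained a call and 145 kept theirs: most of the gains came with the double deletions as separate groups, without either double deletion, or on the scale of all probes. The sign changes between genotypes mostly concern differences close to 0: over 170 settings of the genotype means other than the scale of all probes, 0 were called, with values from -0.15 to 0.10. The scale of all probes takes in the antisense signal of the locus and called 4 of 10. The cause of the other changes was not tested.

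With all 8 arrays in 1 fit, probes called were 51 (double less maternal), 291 (double less wild type), 16 (maternal less paternal), 88 (maternal less wild type) and 22 (paternal less wild type). In the authors' deposited value table (kept at its own scaling), the plus-strand mean was 0.011 (double less maternal), 0.0083 (maternal less paternal) and -0.15 (polyA less total). For the minus strand the mean was 0.032 (double less maternal), 0.00071 (double less wild type) and 0.051 (maternal less paternal) and the plus-strand step to the next window was -0.017 (maternal less paternal), -0.021 (maternal less wild type) and -0.42 (polyA less total). The minus-strand step was 0.011 (double less maternal), 0.021 (double less wild type), 0.0062 (paternal less wild type) and -0.11 (polyA less total) and the wild-type plus-strand step was 0.65. The wild-type minus-strand step was 0.30 and probes called were 32 (maternal less wild type) and 1950 (polyA less total). With background-subtracted signal, the plus-strand mean was 0.016 (paternal less wild type). On the other strand the mean was 0.040 (double less wild type), 0.070 (maternal less paternal), 0.080 (maternal less wild type) and 0.010 (paternal less wild type) and the plus-strand step to the next window was -0.041 (maternal less paternal), -0.055 (maternal less wild type) and -0.18 (polyA less total). The minus-strand step was 0.0027 (double less wild type) and 0.16 (polyA less total) and probes called were 67 (double less wild type), 75 (maternal less wild type) and 2767 (polyA less total). With 20-kb bins, bins called were 20 (polyA less total). With 5-kb bins, bins called were 75 (polyA less total). On catalogue probes alone, the minus-strand mean was 0.0072 (maternal less paternal). The plus-strand step to the next window was -0.022 (maternal less paternal), -0.016 (maternal less wild type), 0.0061 (paternal less wild type) and -0.34 (polyA less total) and the minus-strand step was 0.019 (double less maternal), 0.024 (double less wild type), -0.0036 (maternal less paternal), 0.0091 (paternal less wild type) and -0.091 (polyA less total). The wild-type plus-strand step was 0.53 and the wild-type minus-strand step was 0.25. Probes called were 2337 (polyA less total). On custom probes alone, the plus-strand mean was 0.0062 (paternal less wild type) and 0.060 (polyA less total). The minus-strand mean was 0.012 (double less maternal) and probes called were 0 (double less wild type) and 2163 (polyA less total). With separate double deletions, the plus-strand step to the next window was -0.085 (double less maternal). Probes called were 348 (double less maternal), 654 (double less wild type), 163 (maternal less paternal), 113 (maternal less wild type) and 42 (paternal less wild type). Without background correction, the plus-strand mean was 0.0032 (paternal less wild type). With outlier spots kept, the minus-strand mean was 0.00073 (maternal less paternal). On probes above background in at least 1 group, the plus-strand mean was 0.00062 (paternal less wild type) and 0.10 (polyA less total). For the minus strand the mean was 0.0072 (maternal less paternal) and 0.098 (polyA less total) and the strand gap was 0.0064 (polyA less total). The wild-type strand gap was -0.023 and bins called were 23 (polyA less total). On probes above background on all 8 arrays, the plus-strand mean was 0.025 (double less maternal), 0.012 (double less wild type) and -0.21 (polyA less total). On the other strand the mean was 0.057 (double less maternal), 0.052 (double less wild type), 0.0062 (maternal less paternal) and -0.16 (polyA less total) and the wild-type strand gap was -0.062. Bins called were 19 (polyA less total) and probes called were 0 (double less wild type) and 2290 (polyA less total). After quantile normalization, the plus-strand mean was 0.018 (double less maternal), 0.049 (double less wild type), 0.032 (maternal less wild type) and 0.039 (paternal less wild type). The minus-strand mean was 0.013 (double less maternal), 0.080 (double less wild type), 0.10 (maternal less paternal) and 0.067 (maternal less wild type) and the plus-strand step to the next window was -0.11 (maternal less paternal), -0.033 (maternal less wild type) and 0.079 (paternal less wild type). The minus-strand step was -0.010 (maternal less wild type) and 0.063 (polyA less total) and the strand gap was 0.0048 (double less maternal). Probes called were 98 (double less wild type) and 2489 (polyA less total) and the value was 0.00047 for double less wild type in the plus-strand bin starting at 65940001 and 0.0033 for maternal less wild type in the plus-strand bin starting at 66040001. Scaled on all probes, the plus-strand mean was 0.40 (double less maternal), 0.40 (double less wild type), -1.25 (maternal less paternal) and 1.25 (paternal less wild type). For the minus strand the mean was 0.41 (double less maternal), 0.43 (double less wild type), -1.22 (maternal less paternal), 0.018 (maternal less wild type) and 1.24 (paternal less wild type) and bins called were 42 (paternal less wild type). Probes called were 53 (double less maternal), 159 (double less wild type), 195 (maternal less paternal), 26 (maternal less wild type) and 6240 (paternal less wild type) and the value was 0.35 for double less wild type in the plus-strand bin starting at 65940001, 1.21 for paternal less wild type in the plus-strand bin starting at 66010001 and 0.33 for double less maternal in the plus-strand bin starting at 66050001. Scaled on the median of outside probes, the plus-strand mean was 0.062 (double less maternal), 0.026 (double less wild type), 0.0028 (paternal less wild type) and -0.63 (polyA less total). On the other strand the mean was 0.075 (double less maternal), 0.058 (double less wild type) and -0.43 (polyA less total) and the value was -0.27 for polyA less total in the minus-strand bin starting at 66090001. Scaled on outside probes above background on all arrays, the plus-strand mean was 0.051 (maternal less paternal) and 0.00019 (maternal less wild type). The minus-strand mean was 0.080 (maternal less paternal) and 0.019 (maternal less wild type) and the value was 0.011 for maternal less paternal in the plus-strand bin starting at 66040001.

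With the replicate block, which pairs each polyA sample with its wild type, the polyA differences were 0.18 (plus strand, adjusted p = 2.77e-06) and 0.38 (minus strand, adjusted p = 8.15e-11), 36 bins and 4518 probes were called, and no call of the flank's means changed. With the replicate block and the scale of all probes they were 1.53 and 1.72.

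Leaving out 1 replicate at a time, the plus-strand mean ran from -0.020 to 0.019 (paternal less wild type) and 0.16 to 0.20 (polyA less total). The plus-strand step to the next window ran from -0.13 to -0.040 (double less maternal), -0.10 to -0.011 (double less wild type) and -0.016 to 0.0076 (paternal less wild type). The minus-strand step ran from -0.051 to 0.0037 (double less wild type) and 0.28 to 0.39 (polyA less total). The strand gap ran from -0.042 to 0.016 (double less maternal) and -0.0014 to 0.021 (paternal less wild type). The wild-type plus-strand step ran from -1.08 to -1.06. The wild-type minus-strand step ran from -1.07 to -1.06. The wild-type strand gap ran from 0.22 to 0.24. Probes called ran from 0 to 355 (double less maternal), 0 to 533 (double less wild type), 0 to 164 (maternal less paternal), 0 to 113 (maternal less wild type) and 0 to 43 (paternal less wild type).

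Depth limits these results: only 73.0% to 79.1% of minus-strand members were well above background on total RNA arrays, and fewer in polyA RNA, so dim levels hold little order. Saturated members have no order either. With 1 sample for each single deletion, their intervals rest on the spread of the other groups. When a wild type or double deletion was left out, the lone sample of that arm was assumed to vary like the others.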

Other observations

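A small set of members was lower by at least 1 log2 in the paternal deletion and in both double deletions than in both wild types. There were 3 on each strand (0.0773% of the members of each). Beside them stood 2 of the outside probes (0.06%) and 2 on each strand of the next window (0.0693%), a share close to theirs. The opposite pattern was shown by 0 members, and likewise by 0 of the outside probes and 0 probes of the next window. They were picked by their values and carry no test. On the plus strand they were A_67_P06210289, A_67_P06210349 (chr7:66039017-66039073) and CUST_1103 (chr7:66011805-66011864). A_67_P06210349 stood at 2.95 and 2.58 in the wild types, 2.86 in the maternal deletion, -0.78 in the paternal deletion and -0.47 and 1.24 in the double deletions. On the minus strand they were RC_CUST_317 (chr7:65925345-65925404), RC_A_67_P14805840 (chr7:65911780-65911826) and RC_CUST_1198 (chr7:66022255-66022314). RC_CUST_317 stood at 4.17 and 4.18 in the wild types, 3.93 in the maternal deletion, 2.40 in the paternal deletion and 2.57 and 2.86 in the double deletions. RC_A_67_P14805840 stood at 2.61 and 2.93 in the wild types, 2.91 in the maternal deletion, -0.37 in the paternal deletion and -0.31 and 1.43 in the double deletions, while its plus-strand partner held 2.73 and 2.65 in the wild types and 2.64 in the paternal deletion. In all 6 of them the second double deletion lay between the first and the wild types. All 6 lie in different places and on both strands.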
